A study of Rattus with 6 samples.

Results

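The troponin and tropomyosin genes encode the proteins that let calcium switch muscle contraction on and off. A set of 10 of them was followed here by gene symbol, out of 20742 genes in the table of read counts: the troponin T genes Tnnt1, Tnnt2 and Tnnt3, the troponin I gene Tnni1, the troponin C genes Tnnc1 and Tnnc2, and the tropomyosin genes Tpm1, Tpm2, Tpm3 and Tpm4. The genes were taken from a fixed list of symbols, which leaves out the troponin I genes Tnni2 and Tnni3, and all 10 had enough reads to be tested. The cells were H9C2, a line derived from embryonic rat heart that is widely used as a myoblast model. They carried either a control plasmid or a plasmid for overexpression of RBM25, an RNA-binding protein that takes part in splice site choice. Each group had 3 libraries of polyadenylated RNA. The labels name no passage, culture or day for any library, and give neither the time after transfection nor the vector's promoter.

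In striated muscle, tropomyosin lies along the actin filament and covers the sites that myosin binds. Troponin C binds calcium, troponin I holds the filament in its inhibited state, and troponin T ties both of them to tropomyosin. Separate genes serve heart, slow skeletal and fast skeletal muscle for most of these subunits, while tropomyosins are also made in cells without sarcomeres, where they coat actin cables. Exon choice within Tnnt2 and within the tropomyosin genes yields further isoforms. The files count reads per whole gene, so these isoforms were not analysed here, and the levels below are those of genes.

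The libraries held 25543849 to 33130256 counted reads. Within the RBM25 group, replicate 3 was the odd library. Compared with replicates 1 and 2, its counts gave a chi-square of 6.23 and 4.80 per degree of freedom, where replicates 1 and 2 gave 3.22 and pairs of controls 3.37 to 3.47. Rbm25 had 49.2, 44.5 and 45.7 CPM (counts scaled to library size) in control replicates 1, 2 and 3, and 56.3, 55.9 and 60.1 CPM in RBM25 replicates 1, 2 and 3. It rose by 23.5%, a log2 fold change of 0.30 with an SE of 0.047 (adjusted p = 0.0011 by edgeR), and the exact permutation test on log2 CPM (two-sided) gave p = 0.1, the smallest that 3 libraries against 3 allow. Without control replicate 2 the edgeR adjusted p for Rbm25 was 0.0842, and on log2 FPKM values limma gave 0.285 to 0.512.

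Markers of muscle lineages were uneven in these cells. Of 10 heart muscle markers only the transcription factors Nkx2-5 and Gata4 reached 1 CPM on average, and no counted gene bore the symbol Nppa or Tbx5. Of 11 skeletal muscle markers 5 reached 1 CPM (Myod1, Myog, Myh3, Ryr1 and Mymk), and no counted gene bore the symbol Myf5 or Pax7. All 5 smooth muscle markers were detected, with a summed level of 9005 to 9524 CPM in controls and 9069 to 10012 CPM with RBM25. Acta2 made up most of that sum, with a control mean of 7248 CPM, while Myh11 had a control mean of 3.82 CPM. Fibroblast markers summed to 22999 to 25270 CPM in controls and 23266 to 24491 CPM with RBM25, mostly from Col1a1 and Col1a2. Of 7 such markers 4 reached 1 CPM (Col1a1, Col1a2, Col3a1 and Thy1). Pdgfra had 3 reads over the control libraries, and no counted gene bore the symbol Dcn or Lum. Of 6 leukocyte markers only Cd14 and Cd3e reached 1 CPM, and no counted gene bore the symbol Ptprc or Adgre1. The 4 endothelial markers summed to at most 0.253 CPM in any library. None of the markers with enough reads to be tested passed between the groups.

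The control cells expressed a mixed set of thin filament genes, with 1 gene leading each troponin family. Levels are compared between genes per length, as the FPKM (fragments scaled to gene length and library size) that the authors deposited. Among the troponins, Tnnc1 led by a wide margin. The protein of this gene is the calcium sensor of heart and slow skeletal muscle. Its FPKM was 425, 426 and 429 in control replicates 1, 2 and 3, a mean of 426 ± 2.04 (SD, n = 3). Tnnc2, the calcium sensor of fast skeletal muscle, was at 14.4, 12.6 and 12.6 FPKM, which put Tnnc1 32.3-fold higher.

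Tnnt2, the cardiac troponin T, was the main gene of its family, with 72.8, 68.5 and 66.0 FPKM in the control libraries. The fast skeletal gene Tnnt3 followed with 4.15, 4.29 and 4.53 FPKM, and the slow skeletal gene Tnnt1 with 0.73, 0.58 and 0.63 FPKM. Tnnt2 was thus 16.0-fold above Tnnt3 and 107-fold above Tnnt1. Tnnt1 rested on 17 to 20 reads per control library.

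Troponin I was the scarce subunit. Tnni1, the slow skeletal gene, had 18, 18 and 17 reads in the control libraries, or 0.44, 0.39 and 0.34 FPKM. The fast skeletal gene Tnni2, which is not among the 10 genes but also encodes a troponin I, stood at 5.95 ± 0.535 FPKM (SD, n = 3) in controls, 15.3-fold above Tnni1. That fold depends on the gene lengths behind the FPKM. Without length scaling the control means were closer, at 4.37 ± 0.394 CPM for Tnni2 and 0.628 ± 0.0785 CPM for Tnni1 (SD, n = 3). Tnni3, the cardiac gene, had 4 reads over the 3 control libraries and 3 reads over the RBM25 libraries. Summed over their genes, the control level was 440 ± 1.37 FPKM for troponin C, 74.1 ± 3.32 FPKM for troponin T and 6.39 ± 0.448 FPKM for troponin I (SD, n = 3). The leading gene was thus of the cardiac type for troponin T, of the shared slow and cardiac type for troponin C, and of the fast skeletal type for troponin I.

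Tropomyosin genes were abundant. Tpm2, the beta-tropomyosin of skeletal and smooth muscle, had 475, 464 and 445 FPKM in control replicates 1, 2 and 3. Tpm4, best known from the cytoskeleton of non-muscle cells, had 434, 386 and 386 FPKM. Tpm1, whose striated form is the main tropomyosin of the heart, had 276, 268 and 268 FPKM, and Tpm3, which gives a slow skeletal and several non-muscle forms, had 59.8, 56.7 and 56.7 FPKM. Together these genes reached 1192 ± 46.6 FPKM (SD, n = 3), of which Tpm2 took 38.7 ± 0.679%, Tpm4 33.7 ± 1.03%, Tpm1 22.7 ± 0.523% and Tpm3 4.85 ± 0.0553%.

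In order of mean control FPKM the genes were Tpm2, Tnnc1, Tpm4, Tpm1, Tnnt2, Tpm3, Tnnc2, Tnnt3, Tnnt1 and Tnni1. Tnnc1 and Tpm4, which are neighbours in that order, overlapped between their control libraries. All the other neighbours were apart in the 3 control libraries, though by little for Tpm2 over Tnnc1 (1.08-fold), and those 2 genes overlapped in the RBM25 libraries.

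**Figure D1:**
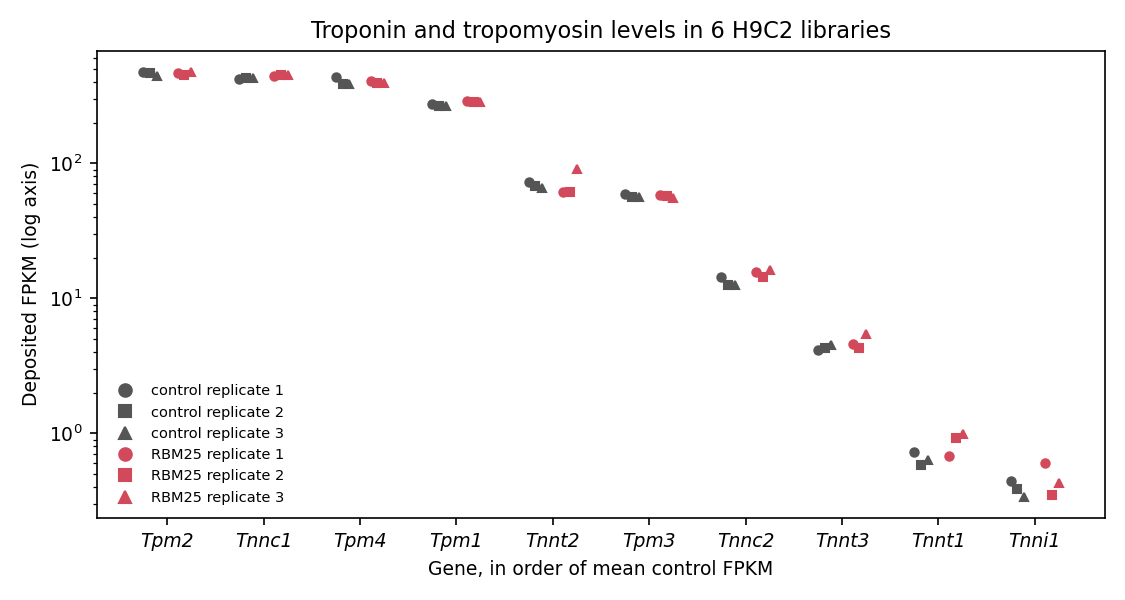
Deposited FPKM (log axis) of the 10 genes in each of the 3 control and 3 RBM25 libraries, in order of mean control FPKM. The genes run from Tpm2 at 461 to Tnni1 at 0.39 FPKM in controls, and RBM25 replicate 3 lies above the other libraries for Tnnt2.

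The upper part of that order depends on the gene length behind the FPKM. Dividing each gene's reads by its FPKM and the library total returned the same length in every library (coefficient of variation at most 0.286% over 4561 genes above 10 FPKM), so the authors' FPKM used 1 fixed length per gene. That length came to 6779 bases for Tpm3 and 969 bases for Tpm4. Both genes had nearly equal reads, 392 ± 12.2 and 390 ± 26.7 CPM in controls (SD, n = 3), but Tpm4 was 6.96-fold higher in FPKM. For Tpm1 the length was 3651 bases and for Tpm2 1988 bases, and by reads alone Tpm1 (989 ± 16.2 CPM) stood above Tpm2 (917 ± 31.3 CPM). The authors' definition of gene length is not stated in the labels or files, and whether these lengths match the transcripts present was not tested. The order of the 4 lowest genes (Tnnc2, Tnnt3, Tnnt1 and Tnni1) was the same by mean CPM and by mean FPKM. In CPM, however, Tnnt1 and Tnni1 overlapped between their control libraries (0.662 ± 0.0779 and 0.628 ± 0.0785 CPM, SD, n = 3). Their lengths came to 1022 and 1608 bases, so their distance in FPKM depends on length too.

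**Figure D2:**
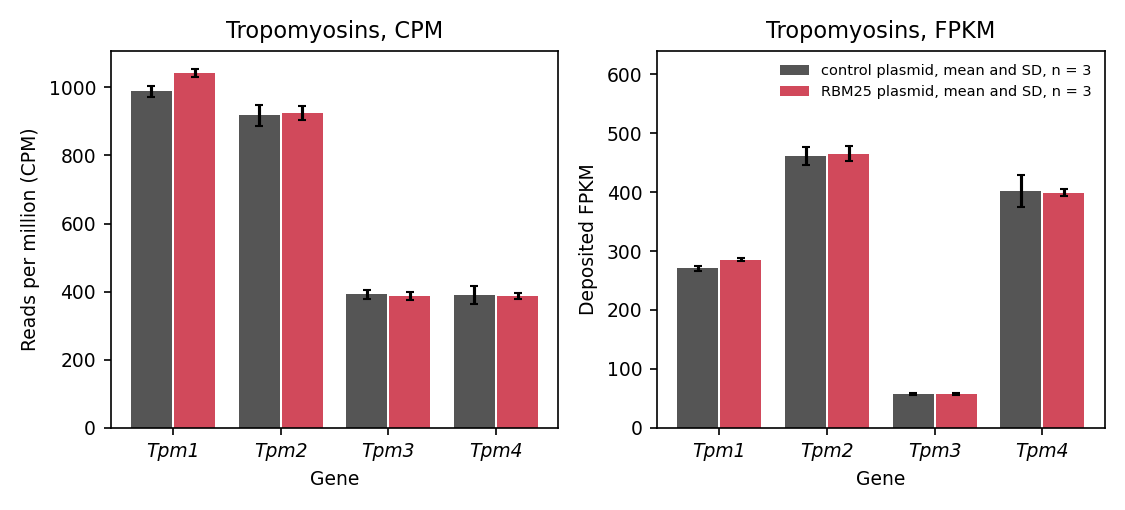
Mean level of the 4 tropomyosin genes as CPM (left) and as deposited FPKM (right), with bars for the mean and error bars for the SD of 3 libraries per group. Tpm3 and Tpm4 are level in CPM (392 and 390 in controls) and differ 6.96-fold in FPKM.

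RBM25 overexpression was then compared with the control plasmid for each gene. None of the 10 genes passed the edgeR quasi-likelihood test at an adjusted p under 0.05, where 0.404% of the 12882 tested genes did. DESeq2 called none either (0.425% of the genes it adjusted), and gave no adjusted p for Tnnt1 and Tnni1. At an unadjusted p under 0.05 there were 3 of 10 by edgeR (Tnnc1, Tnnc2 and Tpm1), beside 11.2% of all tested genes. Of the 10 log2 fold changes 8 were positive, beside 48.8% of all tested genes, and their median was 0.077, beside -0.0021 over all tested genes. The groups did not overlap for Tnnc1 and Tpm1, both higher with RBM25, as for 16.2% of tested genes in either direction and 8.31% with RBM25 higher.

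Tnnc1 had 419, 421 and 422 CPM in the control libraries and 441, 448 and 444 CPM in RBM25 replicates 1, 2 and 3. Every RBM25 library lay above every control library, with little spread inside each group. The difference on the log2 scale was 0.079 ± 0.029 (SE; edgeR adjusted p = 0.278), or 5.62% with a 95% interval of 1.35% to 10.1%. The 2 groups were 23.6 CPM apart, while the SDs were 1.62 and 3.29 CPM (n = 3). An SD from 3 libraries is itself uncertain, and the adjusted p rests on the edgeR fit and not on these SDs.

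Tnnc2 had 13.6, 11.9 and 11.9 CPM in controls and 15.0, 13.5 and 15.1 CPM with RBM25. Control replicate 1 lay just above RBM25 replicate 2, so the groups overlapped. This gave 16.8% on average, with a 95% interval of 4.28% to 30.8% (log2 fold change 0.22, SE 0.079, adjusted p = 0.253 by edgeR). The share of Tnnc2 in the summed troponin C FPKM was 3.01 ± 0.245% in controls and 3.31 ± 0.214% with RBM25 (SD, n = 3), and the libraries overlapped.

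Tpm1 had 1008, 982 and 977 CPM in the control libraries and 1057, 1036 and 1034 CPM with RBM25. All 3 RBM25 libraries were above all 3 controls, by a smaller margin than for Tnnc1 relative to the spread. On the log2 scale they differed by 0.076 ± 0.027 (SE; edgeR adjusted p = 0.264), or 5.40% with a 95% interval of 1.37% to 9.60%. With the replicate number as a block the edgeR adjusted p was 0.0404 at the same fold change, but in that fit 3.38% of all tested genes were called and 2.0% were called higher, and the numbers were not shown to pair the libraries.

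The other tropomyosins gave small differences of either sign. Tpm2 had 945, 924 and 883 CPM in controls and 936, 899.8 and 938 CPM with RBM25, with a 95% interval of the difference from -3.43% to 5.22%. Tpm3 had 406, 385 and 384 CPM in controls and 396, 389 and 373 CPM with RBM25 (95% interval -5.85% to 3.32%). Tpm4 had 420.4, 375 and 373 CPM in controls and 396, 385 and 381 CPM with RBM25 (95% interval -6.04% to 5.10%). Control replicate 1 was the highest control library for each of these 3 genes, and the groups overlapped for all of them. The edgeR adjusted p was 0.927 for Tpm2, 0.868 for Tpm3 and 0.961 for Tpm4. The share of Tpm1 in the summed tropomyosin FPKM was 22.2%, 22.8% and 23.2% in control replicates 1, 2 and 3 and 23.6%, 23.8% and 23.5% in RBM25 replicates 1, 2 and 3. The groups were apart for that share by 0.919 percentage points in the mean, and this was not tested.

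**Figure D3:**
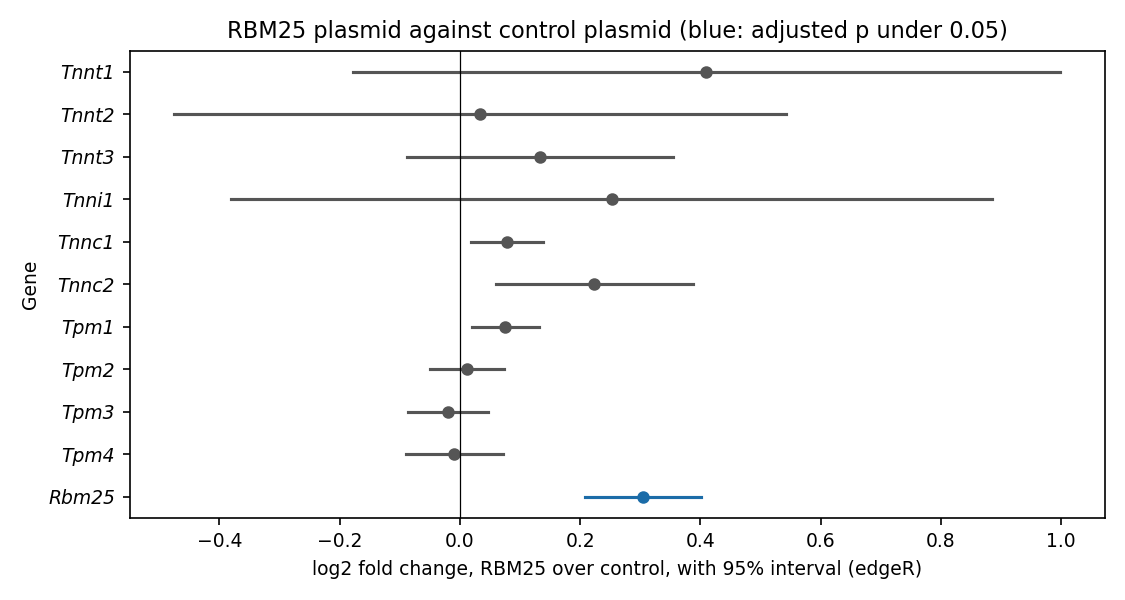
Log2 fold change of RBM25 over control for the 10 genes and Rbm25, from edgeR, with 95% intervals. The intervals of Tnnc1, Tnnc2 and Tpm1 lie above 0 before adjustment, those of Tnnt1, Tnnt2 and Tnni1 are wide, and of the genes shown Rbm25 alone passed the adjusted threshold.

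Tnnt2 had the widest spread within the RBM25 group among the 7 members above 10 CPM. It had 112, 105 and 101 CPM in the control libraries and 94.1, 94.6 and 137 CPM in RBM25 replicates 1, 2 and 3. RBM25 replicates 1 and 2 were below every control library and RBM25 replicate 3 was above every control library. The fit to all 6 libraries gave 0.034 ± 0.19 on the log2 scale (SE; edgeR adjusted p = 0.972), with a 95% interval of -28.1% to 45.7%. Without RBM25 replicate 3 the direction turned and Tnnt2 was called lower, at -0.17 ± 0.038 on the log2 scale (SE; edgeR adjusted p = 0.0055). In that fit 1.19% of tested genes were called lower, and 2.69% were called in all. RBM25 replicates 1 and 2 were already below all controls, so leaving out the 1 opposing library fixed the direction beforehand. That call is therefore no separate support for a lower Tnnt2.

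Such a spread was rare among well-expressed genes. The highest RBM25 library was 1.46-fold above the lowest for Tnnt2, where the median was 1.06-fold over the 5248 tested genes whose mean log2 CPM reached 5, and 8 of these genes, Tnnt2 among them, spread as far. The arrangement of Tnnt2, with RBM25 replicates 1 and 2 below and replicate 3 above all controls, was shown by 287 tested genes, or 2.23%. Among the listed partners, regulators and markers it was shared by Cnn3, which encodes an actin-binding calponin, and by Myog, the myogenin gene, a transcription factor that drives skeletal muscle differentiation. Myog had 20.3, 21.2 and 22.8 CPM in controls and 14.6, 14.9 and 25.6 CPM with RBM25. With all libraries Myog was not called (adjusted p = 0.811 by edgeR). Without RBM25 replicate 3 its log2 fold change was -0.54 (SE 0.076, adjusted p = 1.93e-06 by edgeR). Myog was picked for having RBM25 replicates 1 and 2 below all controls, which fixed that direction beforehand. The fit without RBM25 replicate 3 is therefore no separate support.

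Id1 and Id3, singled out after their values were seen, were also among those 8 genes, with the opposite arrangement. They encode inhibitors of the basic helix-loop-helix factors to which myogenin belongs. Id1 had 36.1, 34.2 and 31.9 CPM in controls and 49.7, 42.1 and 30.3 CPM with RBM25, and Id3 had 119, 117 and 111 CPM and 165, 143 and 101 CPM. RBM25 replicate 3 was thus the lowest of the 6 libraries for both genes, while RBM25 replicates 1 and 2 were the highest. The summed skeletal muscle markers were at 96.6 to 100.2 CPM in controls and 93.6 to 101 CPM with RBM25. Most of that sum was Myod1, another myogenic transcription factor, which had 61.5, 58.9 and 60.9 CPM in controls and 68.4, 61.6 and 54.6 CPM in RBM25 replicates 1, 2 and 3. Myod1 was thus lowest in RBM25 replicate 3, where Myog was highest, so the sum says little about the other markers. The part of differentiation state or of a single culture in the values of Tnnt2 was not tested. In RNA from whole cultures, fewer cells expressing a gene and less RNA of it per cell cannot be told apart.

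**Figure D4:**
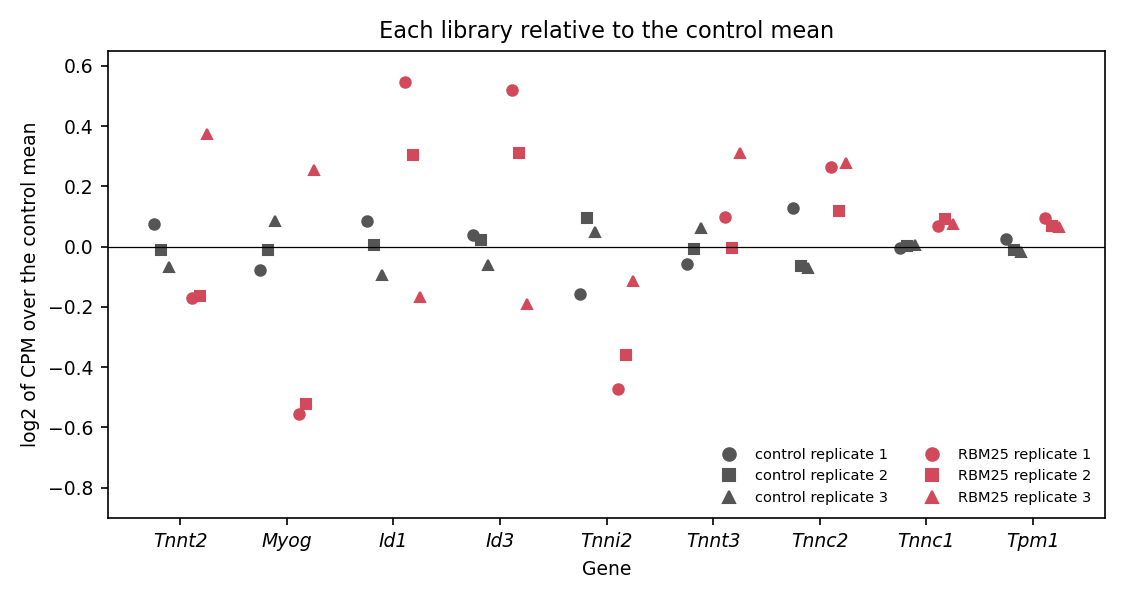
Each library's CPM relative to the control mean (log2) for Tnnt2, Myog, Id1, Id3, Tnni2 and 4 further troponin and tropomyosin genes. RBM25 replicate 3 lies on the other side of the controls from RBM25 replicates 1 and 2 for Tnnt2, Myog, Id1 and Id3, and beside them for Tnnc1 and Tpm1.

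The skeletal troponin T genes did not share the arrangement of Tnnt2. Tnnt3 had 6.12, 6.34 and 6.66 CPM in controls and 6.82, 6.35 and 7.91 CPM with RBM25, highest in RBM25 replicate 3 (log2 fold change 0.13 ± 0.11 SE, edgeR adjusted p = 0.689). Tnnt1 had 19, 17 and 20 reads in controls and 23, 30 and 28 reads with RBM25, or 0.746, 0.592 and 0.647 CPM against 0.697, 0.948 and 1.00 CPM (log2 difference 0.41, SE 0.29, edgeR adjusted p = 0.629). The 95% interval for Tnnt1 ran from -11.6% to 99.9%. RBM25 replicate 3 was the highest of the 6 libraries for 4 members, which were the 3 troponin T genes and Tnnc2. The share of all tested genes for which it was highest was not counted, and for Tnnt1 this rests on 28 reads. The share of Tnnt2 in the summed troponin T FPKM stayed between 92.0% and 93.7% in all 6 libraries. The share of Tnnt1, which rests on few reads, was 0.872 ± 0.0751% in controls and 1.14 ± 0.205% with RBM25 (SD, n = 3), without overlap and not tested. That difference of 0.27 percentage points was 0.152 without RBM25 replicate 2.

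Tnni1 had 0.707, 0.627 and 0.550 CPM in controls and 0.970, 0.569 and 0.680 CPM with RBM25, with RBM25 replicate 1 set apart by 32 reads against 17 to 19 elsewhere. The log2 difference was 0.25 ± 0.31 (SE; edgeR adjusted p = 0.811), and it was -0.0032 without RBM25 replicate 1. Tnni2 had 3.93, 4.67 and 4.53 CPM in controls and 3.15, 3.41 and 4.04 CPM with RBM25. It was the one fast skeletal troponin with a negative fold change (-0.32 ± 0.14 SE, edgeR adjusted p = 0.374), and control replicate 1 fell among the RBM25 libraries.

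**Figure D5:**
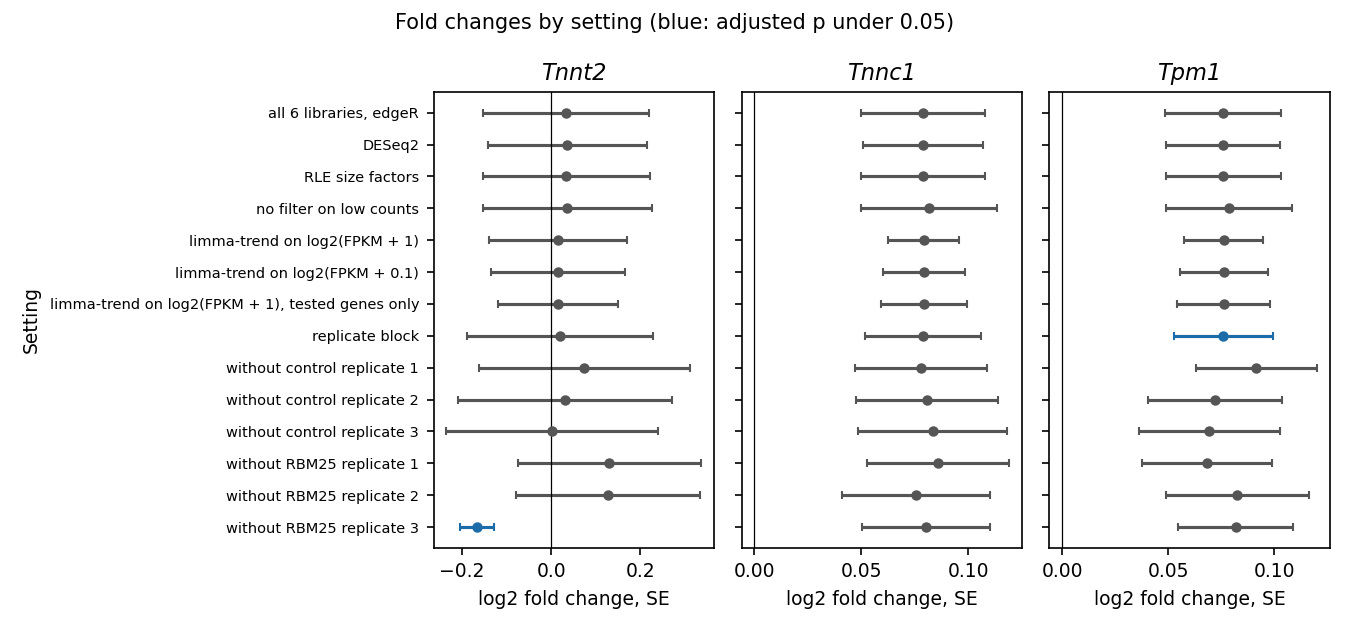
Log2 fold change with SE for Tnnt2, Tnnc1 and Tpm1 under each setting tried, with blue for an adjusted p under 0.05. Tnnc1 and Tpm1 keep their size under all 13 alternatives, while Tnnt2 turns to -0.17 without RBM25 replicate 3.

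The partners of troponin and tropomyosin on the thin filament were read from the same fit. Of 21 listed actins, calponins, caldesmon, tropomodulins, leiomodins, nebulins and remaining troponin I genes, 16 were tested and 0 passed in either direction (9 positive, 7 negative; median log2 fold change 0.056, beside -0.0021 over all tested genes, of which 0.404% passed). At an unadjusted p under 0.05 there were 4 of the 16, beside 11.2% of all tested genes. Cald1, caldesmon, which binds actin and tropomyosin in smooth muscle and non-muscle cells, had the smallest p: 975, 887 and 901 CPM in controls and 1005, 971 and 1021 CPM with RBM25 (log2 difference 0.12, SE 0.033, edgeR adjusted p = 0.122). The actins themselves showed where the thin filament genes sit. Control levels were 6941 ± 190 FPKM for the cytoplasmic Actb, 4798 ± 147 FPKM for the smooth muscle Acta2, 733 ± 21.4 FPKM for Actg1 and 527 ± 30.8 FPKM for Actg2 (SD, n = 3). The skeletal Acta1 was at 6.04 ± 0.653 FPKM and the cardiac Actc1 at 0.48 ± 0.122 FPKM (SD, n = 3). None of these actins passed (edgeR adjusted p = 0.660 to 0.809), and genes as alike as the actins may share reads in counting.

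Of 16 listed regulators of exon choice in muscle transcripts, which include factors known to act on troponin T or tropomyosin exons, 13 were tested and 0 passed (8 positive, 5 negative; median log2 fold change 0.083, beside -0.0021 over all tested genes, of which 0.404% passed). An unadjusted p under 0.05 was seen for 5 of the 13, beside 11.2% of all tested genes, and 5 had no overlap between the groups, beside 16.2%. Mbnl1, a muscleblind protein that acts on Tnnt2 exon choice, had the smallest p. It had 122, 119 and 129 CPM in controls and 141, 142 and 130.0 CPM with RBM25 (log2 difference 0.16, SE 0.038, edgeR adjusted p = 0.0605).

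The genes closest in pattern to the leading troponin and tropomyosin were sought among tested genes whose mean log2 CPM reached 5, by Pearson's r of log2 CPM over the 6 libraries. For Tnnc1 these were Vsig10 (r = 0.995), Eif4a2 (0.98) and Dyrk2 (0.977), and 21 genes exceeded 0.95. For Tpm2 they were Mrtfa (0.986), Tnk2 (0.979) and Cav3 (0.966), and 5 genes exceeded 0.95. These values describe 6 libraries that differ in group and depth, and the best of many genes will be high in so few libraries.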

How the data were processed

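RNA was sequenced from 3 control and 3 RBM25 libraries. Per the labels' protocols, poly(A) RNA was made into strand-marked libraries and sequenced as read pairs. The submitters' processing notes list HISAT2, DESeq2 and the build mRatBN7.2. Versions, annotation, the counting program and its use of strand are unstated there. The deposited counts are whole reads per gene without normalization. The authors' FPKM values were rounded to 2 decimals.

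The main test was edgeR 4.0.16 (R 4.3.3): filterByExpr with minimum count 10 left 12882 genes, scaled by TMM. The quasi-likelihood fit was robust and held only the group, with Benjamini-Hochberg adjustment over all tested genes. A gene was called at an adjusted p under 0.05. SE is the absolute log2 fold change over the root of F. CPM uses TMM-scaled totals. The fit was tested on simulated data. Intervals are for the unadjusted difference. P-values measure the spread between libraries, which may be technical.

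Alternatives were DESeq2 1.42.0, RLE size factors, no filter, limma 3.58.1 on log2(FPKM + 1) and log2(FPKM + 0.1), a replicate block, and leaving out each library. The 10 genes and all lists were chosen with earlier results of these data known. The text names all 10 genes, Rbm25 and the called or smallest-p gene of each list. It also names the 4 partners highest in FPKM and the closest genes in pattern. Acta1, Actc1, Tnni2, Tnni3, Myog, Cnn3, Id1 and Id3 were added after their values were seen. No counted gene bore the symbol Qki. No protein or promoter sequences were used.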

Additional observations from a re-analysis of the deposited data

How the results depend on the processing

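Over 13 alternatives Tnnc1, Tnnc2, Tnnt1, Tnnt3 and Tpm1 kept a positive log2 fold change. The count of the 10 genes called was 0 with all libraries and edgeR, 1 with the replicate block (Tpm1, log2 fold change 0.076) and 0 to 1 with 1 library left out, the 1 being Tnnt2 without RBM25 replicate 3. With 1 library left out, the log2 fold change ranged from -0.17 to 0.13 for Tnnt2, from -0.0032 to 0.42 for Tnni1, from -0.013 to 0.035 for Tpm2, from -0.037 to 0.0079 for Tpm3 and from -0.037 to 0.051 for Tpm4. The sign turned for Tnnt2, Tpm3 and Tpm4 without RBM25 replicate 3, for Tnni1 without RBM25 replicate 1, for Tpm2 without control replicate 3, and for Tpm3 and Tpm4 without control replicate 1; the cause was not tested. The Rbm25 call was lost on log2(FPKM + 1) (0.28), log2(FPKM + 0.1) (0.30) and, in a setting added after seeing the data, log2(FPKM + 1) of the edgeR-tested genes (0.28), and it ranged from 0.27 to 0.35 with 1 library left out. Over all genes 52 were called, against 205 with no filter on low counts, 5 and 5 on log2(FPKM + 1) and log2(FPKM + 0.1), 1 on that scale over the edgeR-tested genes, 436 with the replicate block and 5 to 352 with 1 library left out (5 when control replicate 2 was out, 21 for control replicate 3 and 352 for RBM25 replicate 3). Libraries of the same number were not shown to be paired: their deviations from the group means correlated at 0.054, -0.067 and -0.0059 over genes for numbers 1, 2 and 3. By CPM in place of FPKM, 6 of the 10 control ranks moved. Tnnt1 and Tnni1 rest on 17 to 32 reads per library, and their intervals are among the widest.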
